A study of Mus musculus with 65 samples.

Results

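Splicing factor genes are here the protein-coding genes whose symbols start with Srsf, Hnrnp, Snrp, Sf3a, Sf3b, U2af, Prpf or Rbm, without Snrpn. By this rule 54 of the 18036 genes of the table were members, and 60 other genes that carry such names in RefSeq were not analysed here. They fall into 6 role groups by name: 4 SR proteins (Srsf), 11 hnRNP proteins (Hnrnp), 8 snRNP proteins (Snrp), 8 of the SF3A, SF3B and U2AF factors, 4 PRPF proteins and 19 RBM proteins. The rule uses names alone, with no measured value and no check that each gene, such as each Rbm gene, acts in splicing. It was drawn up with earlier results of these data known.

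Introns are removed from nuclear transcripts by the spliceosome, which assembles on each intron from small nuclear ribonucleoproteins (snRNPs) and many further proteins. U2AF recognises the end of the intron at the 3′ splice site, the SF3A and SF3B complexes are parts of the U2 snRNP that holds the branch point, and several PRPF proteins belong to or act on the U4/U6.U5 particle. The Sm proteins encoded by the Snrpd, Snrpe, Snrpf and Snrpg genes form the ring around the small nuclear RNAs. SR proteins mostly promote the use of exons near their binding sites and hnRNP proteins often oppose it, so both families set which exons are kept. Genes for several of these proteins, among them SF3B1, SRSF2 and U2AF1, are recurrently mutated in clonal blood disorders of older people.

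The series measured RNA in single hematopoietic stem cells of mice older than 20 months, and its title places the label-retaining ones in perisinusoidal niches. The mice were double heterozygous for an SCL-driven tetracycline transactivator (SCL-tTA) and a histone H2B-GFP reporter, in which cells that divide rarely keep the GFP label, so a cell counts as label-retaining only with respect to cells in which the SCL promoter drove the reporter. Both groups were sorted from marrow of femora and tibiae as lineage-depleted, Sca-1+, Kit+, CD34-/low, Flk2-, CD48-, CD150+ cells, and both were then kept in culture for a night, at 3% oxygen and with no growth factor added. The 37 GFP-positive cells (alr-hsc) are called label-retaining here and the 28 GFP-negative cells (anlr-hsc) non-label-retaining. They came from 4 biological repeats with 9, 9, 10 and 9 label-retaining cells and 8, 4, 6 and 10 non-label-retaining cells.

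Each cell was 1 library, made from full-length cDNA with no molecular identifiers and no strand information, and the table gives estimated read counts per gene. Counts per cell over the genes of the table ran from 27954 to 20516069 (median 264894) in label-retaining cells and from 86 to 661078 (median 118056) in non-label-retaining cells, and 4 cells, all non-label-retaining, held fewer than 10000. No 2 columns held the same values. Of the stem cell markers, 7 had rows and 6 were seen, among them Hlf in 31 label-retaining and 12 non-label-retaining cells, while Slamf1, which encodes the CD150 used in the sort, was at 0 in every cell. Flt3 and Cd48, whose proteins the sort selected against, were at 0. Globin transcripts were present in both groups: the 4 erythroid markers in the table took 0.00389 to 7.38% of the counts of a label-retaining repeat and 0.239 to 2.39% of a non-label-retaining one. Of the neutrophil and monocyte markers, 7 had rows and 4 were seen, at 0.00304% of the counts or less in any repeat, and of the 4 B cell markers 3 were seen, at 0.232% or less, with Cd79a in 8 label-retaining and 3 non-label-retaining cells. Few markers of other cell types had rows: 1 of 5 listed for T and NK cells, 2 of 5 for megakaryocytes, 1 of 3 for mast cells and basophils and 2 of 5 for endothelium and stroma. All of these were at 0, which does not show that such cells were absent. The part of depth and of these other transcripts in the results on splicing factor genes was not tested.

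In 5 of the 41 members tested (12.2%, against 7.84% of all genes) the shares of cells per repeat did not overlap between the groups. The promoters of 3 of these (Snrpg, Rbm6 and Snrpf) are shown, with that of the member seen in the most cells (Hnrnpa2b1). Each is the 250 bases before the first start that RefSeq lists for the gene (build GRCm38.p6), read 5′ to 3′ on the strand of the gene. Capitals mark the letters GGGCGG (the GC box bound by Sp-family factors), CCGGAAG (a core of ETS-family sites) and CCAAT (the site of NF-Y), on either strand. The windows are chr6:51469895-51470144, minus strand, for Hnrnpa2b1; chr6:86371290-86371539, plus strand, for Snrpg; chr9:107872820-107873069, minus strand, for Rbm6; and chr10:93589659-93589908, minus strand, for Snrpf.
Hnrnpa2b1: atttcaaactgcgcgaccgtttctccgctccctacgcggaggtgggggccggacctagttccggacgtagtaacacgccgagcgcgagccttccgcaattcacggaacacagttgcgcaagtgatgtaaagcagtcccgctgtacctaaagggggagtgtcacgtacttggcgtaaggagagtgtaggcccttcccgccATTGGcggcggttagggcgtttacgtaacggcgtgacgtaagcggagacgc
Snrpg: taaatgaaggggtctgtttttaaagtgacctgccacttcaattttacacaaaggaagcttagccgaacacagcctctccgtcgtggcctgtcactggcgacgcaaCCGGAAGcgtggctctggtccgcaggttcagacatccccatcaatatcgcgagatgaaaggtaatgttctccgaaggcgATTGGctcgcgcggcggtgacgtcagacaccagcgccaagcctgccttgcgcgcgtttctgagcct
Rbm6: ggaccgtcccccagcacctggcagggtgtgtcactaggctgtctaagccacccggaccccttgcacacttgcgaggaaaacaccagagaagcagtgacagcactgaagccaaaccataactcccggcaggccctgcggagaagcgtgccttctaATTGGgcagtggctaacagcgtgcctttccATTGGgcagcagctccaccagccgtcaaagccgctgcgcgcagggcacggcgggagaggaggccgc
Snrpf: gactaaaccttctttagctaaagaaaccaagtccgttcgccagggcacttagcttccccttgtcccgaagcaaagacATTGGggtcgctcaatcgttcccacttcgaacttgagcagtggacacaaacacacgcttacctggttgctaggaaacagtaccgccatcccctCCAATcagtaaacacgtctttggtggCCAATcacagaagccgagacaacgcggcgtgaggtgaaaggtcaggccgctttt
All 4 windows hold CCAAT on a strand, 1 of them (Snrpg) also holds CCGGAAG, and none holds GGGCGG.

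RefSeq listed a promoter for 47 of the 54 members. Their windows held a median of 17 CpG dinucleotides, against 10 in the windows of all 17492 protein-coding genes and 16 in those of the 2543 such genes seen in at least 10 cells. Among the 35 listed members seen in at least 10 cells, 62.9% held GGGCGG, against 42.7% of all windows and 58.5% of those of the 2543 genes. CCGGAAG was found in 25.7% of them (9.13% of all windows and 14.6% of the 2543), CCAAT in 51.4% (36.3% and 37.2%) and TGACG, the core of the CREB-family site, in 45.7% (20.3% and 29.8%). TATAAA was found in 11.4% (12.4% and 6.76%) and CACGTG, the E box, in 5.71% (6.64% and 9.08%). All 6 motifs were searched on both strands of the same 250 bases, and none is contained in another. These shares describe letters in windows and were not tested.

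A gene is called seen, or detected, in a cell where its deposited value was at least 1. Members were seen in more cells than most genes: the 49 members with a value in any cell were seen in a median of 30 of the 65 cells, against 10 for the 6721 genes with any value. In all, 22 members (44.9%) were seen in 33 or more cells, against 741 genes (11%). The remaining 5 members were at 0 in every cell: Rbmy and Rbm31y, genes of the Y chromosome, and Rbm44, Rbm24 and Rbmxl2. A further 8 were seen in 1 to 9 cells and were not tested.

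In a label-retaining cell more splicing factor genes were seen than in a non-label-retaining cell, and so were more genes of every kind. The mean number of members seen per cell was 34.2, 26.1, 22.9 and 20.7 in label-retaining repeats 1 to 4 and 20.5, 17.5, 13.8 and 9.4 in non-label-retaining repeats 1 to 4. Label-retaining cells had the higher mean within each of the 4 repeats, and their lowest repeat lay just above the highest non-label-retaining one. Over repeats the means were 26 ± 5.93 (SD, n = 4) and 15.3 ± 4.79, a difference of 10.7 genes and a ratio of 1.70.

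Over all genes the means were 1829 ± 444 and 1012 ± 275 (SD, n = 4) genes seen per cell, a ratio of 1.81. Members accordingly made up like shares of the genes seen, 1.44% ± 0.221 among label-retaining cells and 1.51% ± 0.158 among the others. Across the 65 cells the number of members seen followed the number of genes seen (Pearson r 0.93, Spearman rho 0.95), and did so among the cells of each group alone (Pearson r 0.91 in both), with both numbers taken from the same library. Its correlation with the logarithm of the total count was lower, at 0.55. The plot of members against genes seen shows both groups along a single band.

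**Figure D1:**
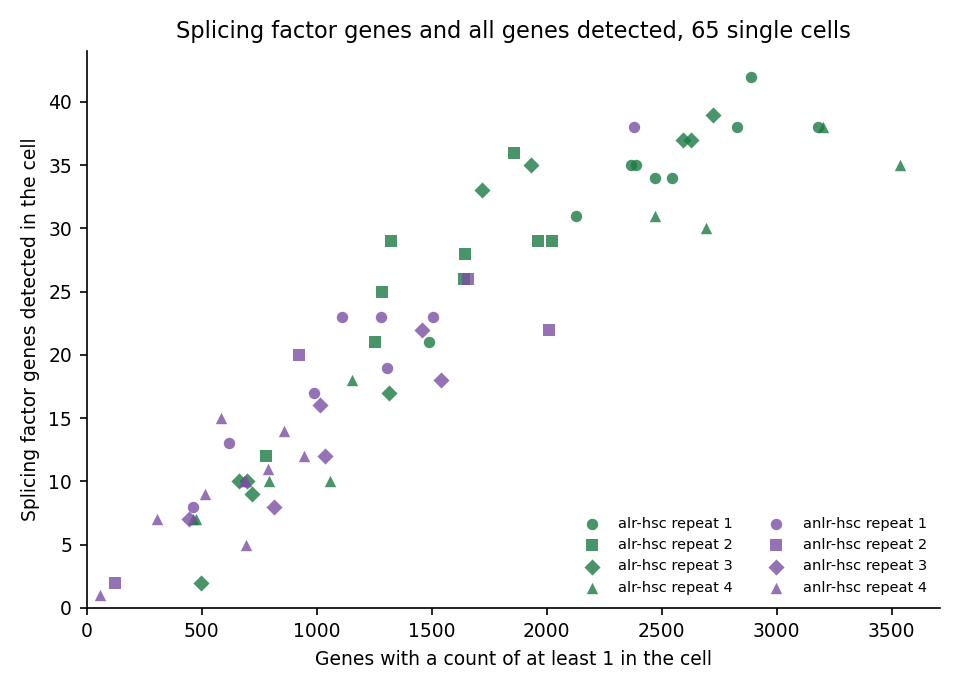
Splicing factor genes seen in each of the 65 cells (vertical axis) against all genes seen in that cell (horizontal axis), with 1 point per cell, colour for the group and shape for the repeat. Cells of both groups lie on 1 band (Pearson r 0.93), with label-retaining cells reaching 42 members and non-label-retaining cells 38.

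The counts changed with the reading of depth. With each cell thinned to 10000 counts, which left out the 4 shallow cells, the means were 15.4 ± 4.43 and 9 ± 5.38 members (SD, n = 4; ratio 1.72), against a ratio of 1.5 for all genes. Without those 4 cells and without thinning they were 26 ± 5.93 and 17.4 ± 6.02 (ratio 1.49, all genes 1.59). A stricter limit, a value of at least 10, gave 16.8 ± 5.42 and 4.33 ± 2.38 members (ratio 3.89), against a ratio of 3.17 for all genes. Members were thus scarcer in non-label-retaining cells under all 4 readings, and whether their ratio exceeded that of all genes depended on the reading.

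The 6 role groups moved in the same direction. Averaged over cells, 68.6% ± 17 of the SR genes, 62.9% ± 14 of the hnRNP genes and 59.7% ± 15.3 of the PRPF genes with any value were seen in a label-retaining cell (SD, n = 4 repeats). The shares in non-label-retaining cells were 41.7% ± 24.3, 42.8% ± 11.4 and 36.6% ± 17.7. The snRNP genes were seen less, at 46.4% ± 9.59 against 25.7% ± 9.43, as were SF3A, SF3B and U2AF genes (48.1% ± 19.1 against 25.1% ± 11.3) and RBM genes (45.5% ± 8.85 against 24.3% ± 6.42). The RBM group alone had no overlap between the repeats of the groups, its lowest label-retaining repeat being at 40.5% and its highest non-label-retaining repeat at 28.6%. The ratio was smallest for the hnRNP genes (1.47) and largest for SF3A, SF3B and U2AF genes (1.92), a range within which the groups were not tested against each other.

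**Figure D2:**
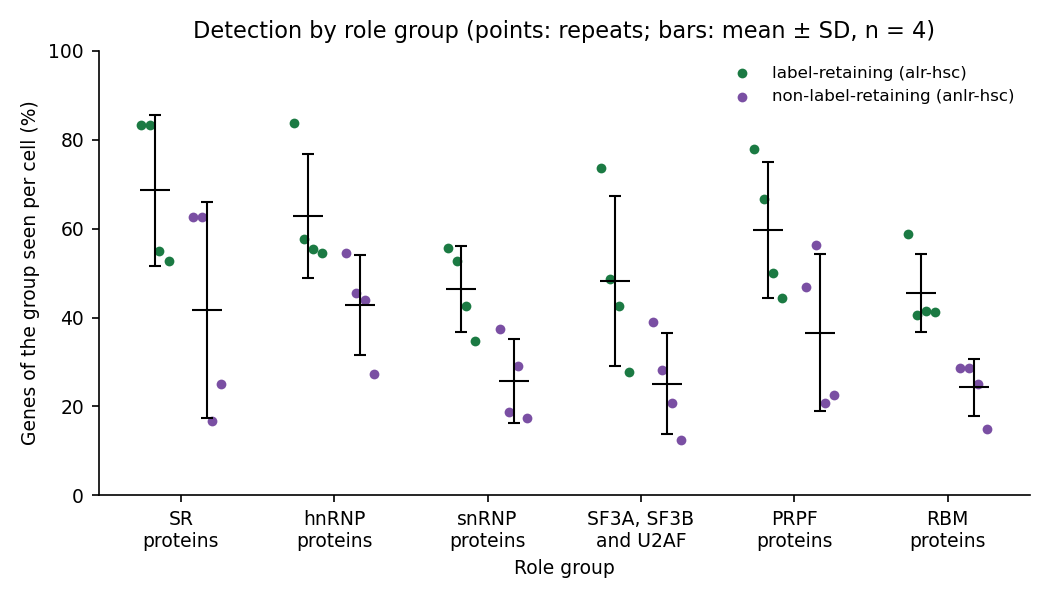
Share of the genes of each role group seen per cell in percent (vertical axis), with 1 point per repeat and bars for the mean ± SD of 4 repeats. Label-retaining means lie above non-label-retaining means in all 6 groups, and the points overlap or touch in all but the RBM group.

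Gene by gene, the share of cells in which a member was seen was compared over repeats, 4 shares against 4, with a two-sided exact permutation test, in which the smallest possible p is 0.0286. Of the 41 members seen in at least 10 cells, 5 (12.2%) had every label-retaining repeat above every non-label-retaining repeat, against 265 of 3379 genes tested (7.84%). None lay the other way, among the members or among all genes (0%). The smallest p adjusted over all genes (Benjamini-Hochberg) was 0.364, so no gene passed 0.05. The median difference was 24.7 percentage points for members and 19.7 for all genes, and 40 members (97.6%) against 93.3% of all genes were seen more in label-retaining cells. The label-retaining share was higher within all 4 repeats for 24 members (58.5%) and for 998 genes (29.5%). The plot of cumulative differences shows the members to the right of all genes over most of the range; members were also seen in more cells than most genes.

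**Figure D3:**
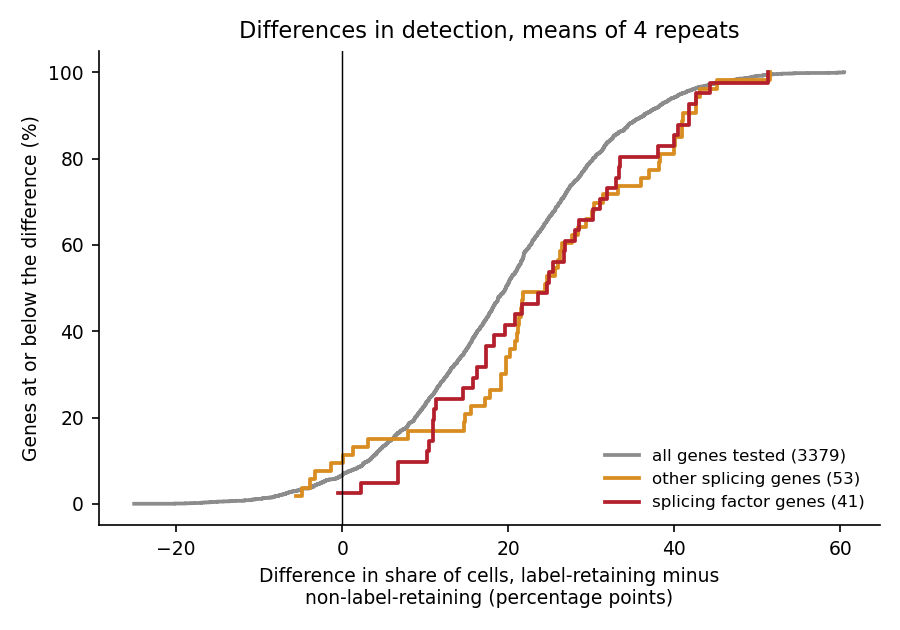
Cumulative share of genes in percent (vertical axis) by difference in share of cells between label-retaining and non-label-retaining cells in percentage points (horizontal axis), for the 41 members, 53 other splicing genes and 3379 genes tested. Medians are 24.7, 24.4 and 19.7 points, and 1 member lies below 0.

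With values of at least 10 required, 12 of 33 members (36.4%) did not overlap, against 20.3% of 1649 genes, and in cells thinned to 10000 counts 4 of 30 (13.3%) against 3.66% of 1638 genes. Without the 4 shallow cells it was 4 of 41 (9.76%) against 5.25% of 3370 genes. In these readings the share of members stood above that of all genes, though different genes were tested in each. Leaving out repeats 1 to 4 in turn, it did so in 2 of 4 cases: 17.1% of members against 17.5% of all genes, 26.8% against 22.5%, 19.5% against 20.1% and 29.3% against 13.4%.

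Rbm22 had the largest difference of any member. It encodes a zinc finger and RNA-recognition protein of the catalytic spliceosome (gene ID 66810, mm10 chr18:60560786-60572729). It was seen in 77.8, 55.6, 60 and 44.4% of label-retaining cells of repeats 1 to 4 and in 12.5, 0, 0 and 20% of non-label-retaining cells, 22 of 37 cells against 3 of 28. The shares do not overlap and differed by 51.3 points (59.4% ± 13.9 against 8.13% ± 9.87, SD, n = 4; exact permutation p = 0.0286, adjusted p = 0.364). In cells thinned to 10000 counts the difference was 28 points, and with values of at least 10 it was 26.9 points, with no overlap in either.

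Rbm6 (gene ID 19654, chr9:107773559-107873358), a neighbour of Rbm5 and like it a regulator of alternative splicing, was seen in 77.8, 55.6, 80 and 77.8% of label-retaining cells and in 37.5, 50, 16.7 and 20% of non-label-retaining cells. The groups came closest in repeat 2, at 55.6 and 50%, and did not overlap. Its difference was 41.7 points (exact permutation p = 0.0286, adjusted p = 0.364), and it was 35 points without the 4 shallow cells (exact permutation p = 0.0571) and 25.6 points after thinning (exact permutation p = 0.143), with overlap in both. Its counts were low, with a median of 8 in the cells where it was seen, and 17 of its 37 values above 0 were fractions.

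Snrpg encodes the Sm protein G of the ring around small nuclear RNAs (gene ID 68011, chr6:86371540-86378902), and its promoter is shown above. It was seen in 66.7, 88.9, 60 and 77.8% of label-retaining cells and in 25, 25, 33.3 and 50% of non-label-retaining cells. The lowest label-retaining repeat, at 60%, lay above the highest non-label-retaining one, at 50%, and the means differed by 40 points (exact permutation p = 0.0286, adjusted p = 0.364). Thinning changed this little, to 44.1 points. Of its 37 values above 0, 17 were fractions.

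U2af2 encodes the large U2AF subunit, which binds the polypyrimidine tract before the 3′ splice site (gene ID 22185, chr7:5060885-5079945). It was seen in 55.6, 22.2, 50 and 22.2% of label-retaining cells and in 12.5, 0, 0 and 10% of non-label-retaining cells, 14 cells against 2. The shares did not overlap, and the difference was 31.9 points (exact permutation p = 0.0286, adjusted p = 0.364). All its values were whole counts.

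Snrpf, for the Sm protein F (gene ID 69878, chr10:93583029-93589658), was seen in 22.2, 44.4, 30 and 33.3% of label-retaining cells and in 12.5, 0, 0 and 10% of non-label-retaining cells, 12 cells against 2. The shares did not overlap, at a difference of 26.9 points (exact permutation p = 0.0286, adjusted p = 0.364). After thinning it was 15.6 points, in too few cells to be tested. Reads here are uncertain: 85.4% of its merged exons in GENCODE overlap other genes, chiefly Ccdc38 on the other strand, and all 16 of its values above 0 were fractions, as where a read is shared between genes. The 5 genes thus include 2 of 8 snRNP, 1 of 6 SF3A, SF3B and U2AF and 2 of 10 RBM members tested, and no SR, hnRNP or PRPF member.

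**Figure D4:**
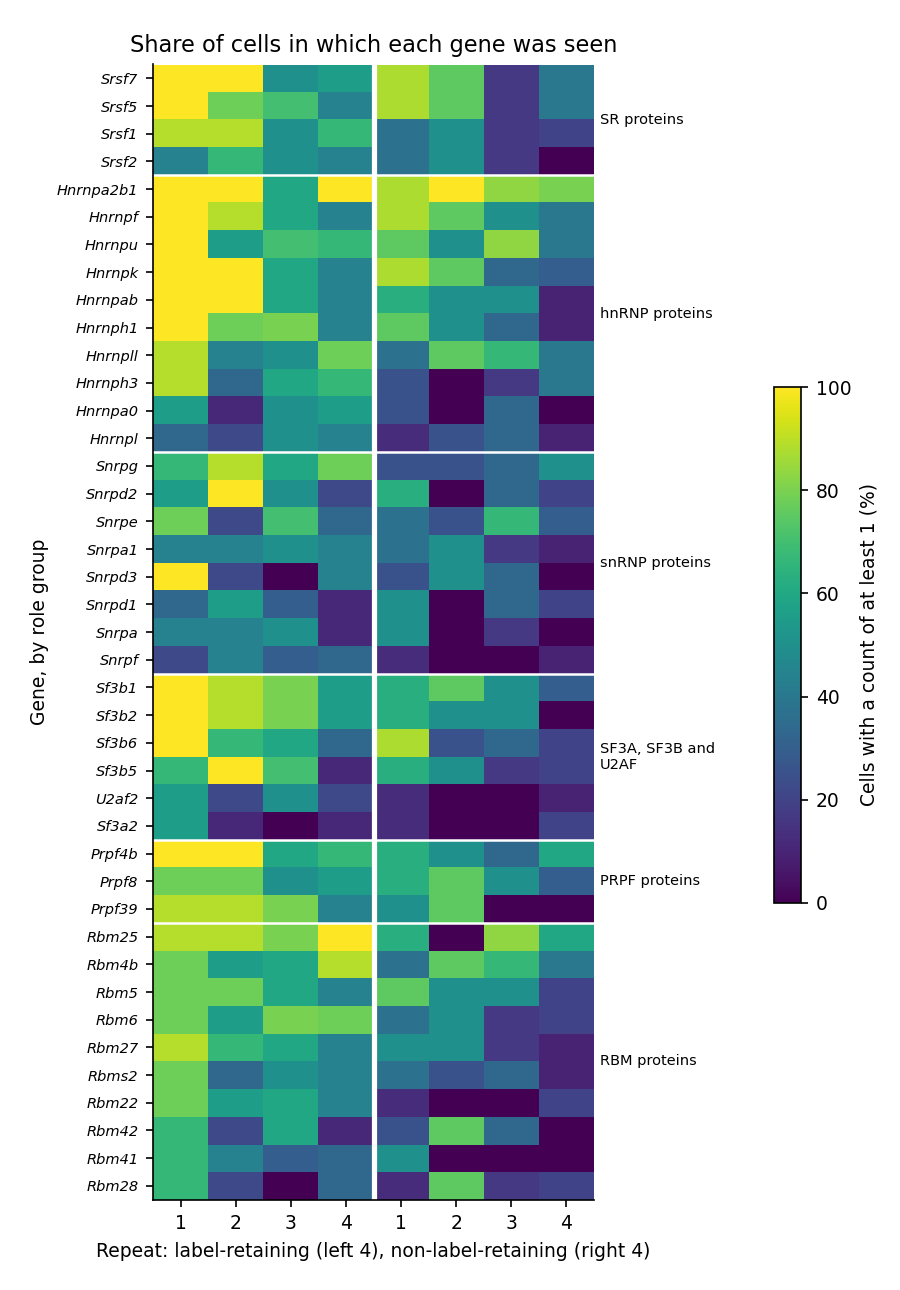
Share of cells in percent (colour) in which each of the 41 members was seen, by repeat (columns; label-retaining on the left, non-label-retaining on the right) and role group (rows). Columns darken to the right, most of all in non-label-retaining repeat 4, while Hnrnpa2b1 stays at 60% or above in all 8.

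Among SR proteins, which bind exonic enhancers, Srsf7 was seen in 100, 100, 50 and 55.6% of label-retaining and 87.5, 75, 16.7 and 40% of non-label-retaining cells. Srsf5 was seen in 100, 77.8, 70 and 44.4% and in 87.5, 75, 16.7 and 40%. Srsf1, the best studied member of the family, was seen in 88.9, 88.9, 50 and 66.7% and in 37.5, 50, 16.7 and 20%. All 3 were higher within each of the 4 repeats, but their groups overlapped, for Srsf1 by the single shared value of 50% (difference 42.6 points, exact permutation p = 0.0571, adjusted p = 0.378). Srsf2, one of the genes mutated in human blood disorders, was seen in 19 label-retaining and 6 non-label-retaining cells, with 73.3% fractional values and 25.3% of its exons overlapping other genes, mainly Mettl23 on the other strand.

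The hnRNP genes held the member seen in the most cells. Hnrnpa2b1, an abundant binder of nascent transcripts, was seen in 100, 100, 60 and 100% of label-retaining cells and in 87.5, 100, 83.3 and 80% of non-label-retaining cells. The difference was 2.29 points (exact permutation p = 1), in a gene seen in 57 of 65 cells. It was -5.83 points without the 4 shallow cells and 44.9 points, label-retaining higher, where a value of at least 10 was required (exact permutation p = 0.0857). Hnrnpu, a nuclear scaffold protein, was seen in 100, 55.6, 70 and 66.7% against 75, 50, 83.3 and 40%, and Hnrnpf in 100, 88.9, 60 and 44.4% against 87.5, 75, 50 and 40%. Both overlapped widely, at 11 and 10.2 points, and with values of at least 10 the differences were 37.2 (exact permutation p = 0.0571) and 17.5 points.

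Hnrnph3 had one of the 6 largest differences among members, with 88.9, 33.3, 60 and 66.7% against 25, 0, 16.7 and 40% (41.8 points, exact permutation p = 0.0571, adjusted p = 0.378). Label-retaining repeat 2 lay below non-label-retaining repeat 4, so the groups overlapped. The other hnRNP genes tested were Hnrnpk (28 label-retaining and 15 non-label-retaining cells), Hnrnpab (28 and 11), Hnrnph1 (28 and 11), Hnrnpll (24 and 14), Hnrnpa0 (16 and 4) and Hnrnpl (14 and 5). All had higher mean shares in label-retaining cells, and Hnrnpll was higher within 2 of 4 repeats only. Hnrnpul1 was seen in 7 and 2 cells and was not tested.

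The snRNP genes seen in the most cells were Snrpg, given above, and Snrpd2 and Snrpe, which encode the Sm proteins D2 and E. Snrpd2 was seen in 55.6, 100, 50 and 22.2% of label-retaining and 62.5, 0, 33.3 and 20% of non-label-retaining cells. Snrpe was seen in 77.8, 22.2, 70 and 33.3% against 37.5, 25, 66.7 and 30%. Both overlapped widely, at differences of 28 and 11 points, and each was higher within 3 of 4 repeats. The U2 protein gene Snrpa1 was seen in 17 and 7 cells, the U1 protein gene Snrpa in 14 and 5, and the Sm protein genes Snrpd3 in 15 and 6 and Snrpd1 in 12 and 8. Snrpd1 was higher in label-retaining cells within 1 of 4 repeats only.

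Of the U2 factors, Sf3b1, the largest SF3B subunit and the gene most often mutated among splicing factors in myelodysplasia, was seen in 100, 88.9, 80 and 55.6% of label-retaining cells. Its non-label-retaining shares were 62.5, 75, 50 and 30%, so the groups overlapped (26.7 points, exact permutation p = 0.114). Sf3b2, its partner subunit, was seen in 100, 88.9, 80 and 55.6% of label-retaining cells, the same shares as Sf3b1, and in 62.5, 50, 50 and 0% of non-label-retaining cells. Its difference of 40.5 points was among the 6 largest of the members (exact permutation p = 0.0571, adjusted p = 0.378), and it was seen in no cell of non-label-retaining repeat 4, where 10 cells were measured. Sf3b6, the subunit at the branch point adenosine, was seen in 100, 66.7, 60 and 33.3% against 87.5, 25, 33.3 and 20%. Sf3b5 was seen in 23 and 10 cells and Sf3a2 in 7 and 3. Sf3a1 (7 and 1) and U2af1l4 (7 and 2) were not tested.

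Of the PRPF genes, the kinase gene Prpf4b was seen in 100, 100, 60 and 66.7% of label-retaining cells and 62.5, 50, 33.3 and 60% of non-label-retaining cells. The groups overlapped between 60 and 62.5% (30.2 points, exact permutation p = 0.0857). Prpf8, for the central scaffold of the spliceosome, was seen in 77.8, 77.8, 50 and 55.6% against 62.5, 75, 50 and 30%, a difference of 10.9 points. Prpf39, for a U1 snRNP-associated protein, was seen in 88.9, 88.9, 80 and 44.4% against 50, 75, 0 and 0%. Its difference of 44.3 points was second to that of Rbm22, yet the repeats overlapped (exact permutation p = 0.114, adjusted p = 0.444). Prpf31 was seen in 6 and 2 cells.

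Of the RBM genes, Rbm25, which encodes a U1-associated regulator, was seen in the most cells: 88.9, 88.9, 80 and 100% of label-retaining and 62.5, 0, 83.3 and 60% of non-label-retaining cells. The wide spread of the latter includes repeat 2, of 4 cells, in which it was not seen (38 points, exact permutation p = 0.0571). Rbm4b was seen in 77.8, 55.6, 60 and 88.9% against 37.5, 75, 66.7 and 40%, and Rbm5 in 77.8, 77.8, 60 and 44.4% against 75, 50, 50 and 20%. Rbm4b counts were low throughout, with a median of 2.25 in the 40 cells, and 30.8% of its exons overlap another gene.

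Rbm28, a gene of a nucleolar protein associated with spliceosomal snRNPs, was the 1 tested member with the lower mean share in label-retaining cells, at 66.7, 22.2, 0 and 33.3% against 12.5, 75, 16.7 and 20%. The difference was -0.486 points, and 16.9 points with repeat 2 of both groups left out. Rbm14 also had a lower mean share, with 11.1, 11.1, 0 and 11.1% against 0, 0, 33.3 and 10% in 6 cells in all, and was not tested. Rbm27 was seen in 24 and 8 cells, Rbms2 in 19 and 7, Rbm41 in 16 and 4 and Rbm42 in 15 and 7, where 75.4% of the exons of Rbm42 overlap the read-through gene model Gm21982. Below 10 cells, Rbm4 was seen in 8 label-retaining cells, Rbm15b in 6 and Rbms3 in 1, and all 3 in 0 of 28 non-label-retaining cells, which allows a share of up to 10.7% by counting error alone. Of the exons of Rbm4, 60.5% overlap the gene model Gm21992 on the same strand.

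For levels, the counts of all cells from 1 group in 1 repeat were added up, and the 4 sums of each group were compared with edgeR's quasi-likelihood test. None of 2767 genes passed an adjusted p of 0.05 (0%; smallest adjusted p = 0.325), and 0 of the 38 members tested did. At an unadjusted p under 0.05 there were 179 higher and 123 lower genes, among them 1 higher and 3 lower members. These counts depended on the fit: with the repeat as a block they were 214 and 9 genes, and 1 and 0 members, and with total counts in place of TMM 227 and 42 genes, and 1 and 0 members. DESeq2 called 14 of the 1851 genes to which it gave an adjusted p (0.756%), 8 of them higher, and 0 of 27 members. It gave none to 11 members, among them Snrpe, Snrpg and Hnrnph3, and its smallest for a member was 0.0779, for Hnrnpa0. The median log2 fold change, label-retaining over non-label-retaining, was 0.85 for members and 1.14 for all genes. This median moved with the scaling: the TMM factors of the last 2 non-label-retaining sums were 0.289 and 0.222, those of the remaining 6 lay between 1.44 and 2.06, and total counts in place of TMM gave medians of 1.78 and 1.77. With TMM 21 of the 38 members (55.3%) had a fold change above 0, against 65.2% of all genes, with total counts 24 (63.2%) against 76.3%, and with the repeat as a block 30 (78.9%) against 74.8%.

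Sums of single-cell counts rested on few cells. For 32 of the 38 members more than 50% of the counts in the highest of the 8 sums came from 1 cell, and for 12 members more than 90%, 8 of them among the 17 members with a negative fold change. The common dispersion over all genes was 3.39. Fewer cells that hold a transcript and less RNA per cell cannot be told apart in a sum.

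Hnrnpa2b1 had the highest level of any member in a single sum. Its level was 1720, 1830, 199 and 621 CPM (counts per 1000000 of a sum's total after TMM scaling) in label-retaining sums 1 to 4 and 1225, 19381, 23.1 and 151067 CPM in non-label-retaining sums 1 to 4. Both groups span a wide range and overlap, and non-label-retaining sum 4 stands above all others. In that sum 86.5% of the counts came from 1 cell, in which Hnrnpa2b1 took 49290 counts, or 17.4% of the library. The log2 fold change was -5.30 ± 2.56 (SE; edgeR p = 0.0387, adjusted p = 0.432), and was -1.58 with the repeat as a block (edgeR p = 0.646) and -2.91 without repeat 4 of both groups.

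Snrpe had 211, 11, 1026 and 3.55 CPM in label-retaining and 84.6, 11.9, 50768 and 13.3 CPM in non-label-retaining sums. Its log2 fold change of -5.35 ± 2.67 (SE; edgeR adjusted p = 0.446; -1.32 with the repeat as a block) rests on 1 cell of non-label-retaining repeat 3, in which Snrpe took 10.1% of the counts, and was 0.48 without repeat 3 of both groups. Hnrnph3 had 108, 1.42, 58.3 and 268 CPM against 96.7, 0, 1.92 and 32836 CPM. Of the last sum 94.7% came from 1 cell, and the log2 fold change of -6.24 ± 2.82 (SE; edgeR adjusted p = 0.415) was 0.23 without repeat 4. In both genes a single library held most of the highest sum. The fits left out whole repeats of both groups, so the part of that library alone was not tested.

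Hnrnpa0 encodes a binder of AU-rich RNA and was the 1 member with an unadjusted p under 0.05 in the other direction. It had 17.4, 0.708, 178 and 715 CPM in label-retaining and 2.01, 0, 3.84 and 0 CPM in non-label-retaining sums. The label-retaining sum was higher within all 4 repeats, but label-retaining sum 2 lay among the non-label-retaining ones, and 96.3% of sum 4 came from 1 cell. The log2 fold change was 7.12 ± 2.68 (SE; edgeR p = 0.0079, adjusted p = 0.325).

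The 5 members whose shares of cells did not overlap had no common direction of level in the edgeR fit with TMM scaling. U2af2 had 12.2, 11.3, 157 and 26.2 CPM against 4.03, 0, 0 and 5.3 CPM, with no overlap and a log2 fold change of 4.40 ± 2.60 (SE; edgeR adjusted p = 0.486). Snrpf (3.59, 30, 32.6 and 17.3 CPM against 12.8, 0, 0 and 13.3 CPM) and Rbm6 (3.19, 1.8, 214 and 139.7 CPM against 13.4, 35.7, 5.77 and 68.9 CPM) overlapped, at log2 fold changes of 1.65 ± 2.26 and 1.54 ± 2.19. For Rbm6 the direction turned with the repeat as a block, to -0.36.

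Snrpg had 38.9, 518, 952 and 150.3 CPM in label-retaining sums and 1.34, 3.97, 3.84 and 21232 CPM in non-label-retaining sums. Its 3 first non-label-retaining sums lay below all label-retaining ones, while 99.2% of the counts of the last came from 1 cell. The log2 fold change was -3.68 ± 2.51 (SE; edgeR adjusted p = 0.526), and 7.10 without repeat 4. Rbm22 followed the same pattern, with 19.2, 86.4, 124 and 30.6 CPM against 2.69, 0, 0 and 739.6 CPM. Its log2 fold change was -1.51 ± 2.05 (SE), and 5.71 without repeat 4. With the repeat as a block the log2 fold changes of Snrpg and Rbm22 were 5.32 and 4.02. That of Rbm22 was also positive with total counts in place of TMM, so its sign depended on the fit and the scaling.

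**Figure D5:**
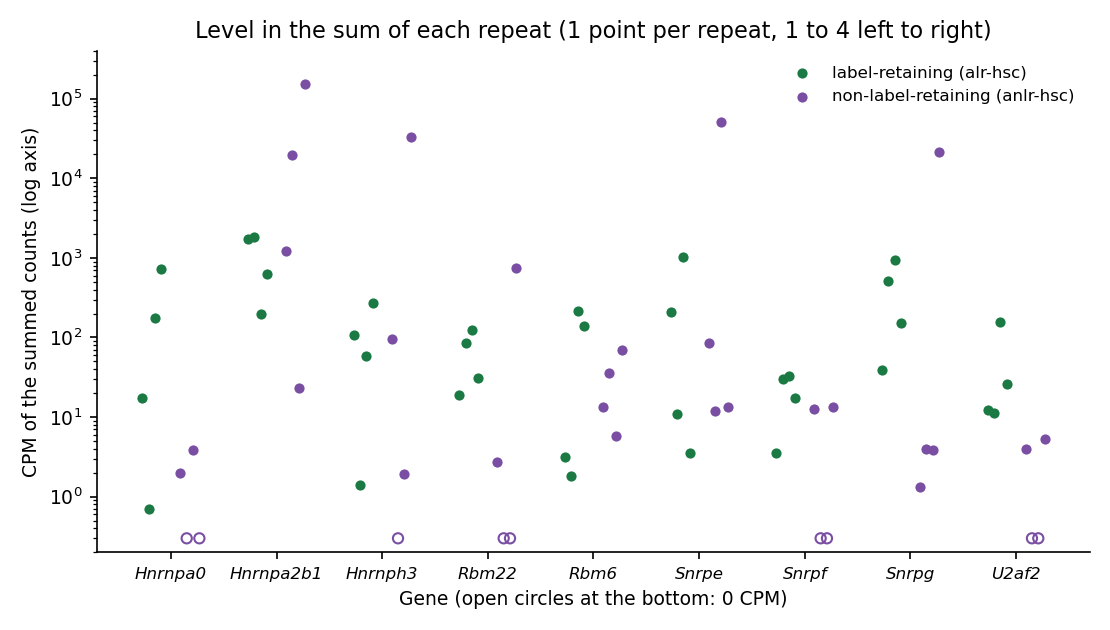
Level of 9 members in each of the 8 sums in CPM (vertical log axis; open circles at the bottom are 0 CPM), with 1 point per repeat, repeats 1 to 4 from left to right. Single non-label-retaining sums of Hnrnpa2b1, Hnrnph3, Snrpe and Snrpg (151067, 32836, 50768 and 21232 CPM) stand above every other sum of their gene.

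Cells in which a single splicing factor gene took more than 2% of the cell's counts were mostly from non-label-retaining repeat 4. The member with the most counts in a cell took a median of 0.347% of the cell's counts in label-retaining cells (range 0.00633 to 2.2%) and 0.746% in non-label-retaining cells (0.00211 to 17.4%). It took more than 2% in 1 of 37 label-retaining cells and in 8 of 28 non-label-retaining cells, of which 1 held only 86 counts. Of the 8 cells 6 were from non-label-retaining repeat 4, 1 each from repeats 2 and 3 and 0 from repeat 1. The gene with the most counts of all genes took a median of 8.93% of a label-retaining and 9.29% of a non-label-retaining cell. The leading member was Hnrnpa2b1 in 10 cells, Hnrnpk in 7 and Hnrnpu, Rbm25, Snrpe or Snrpg in 4 each. In repeat 4 the median total count was 164961 for label-retaining cells and 201757 for the others, with a median of 1152 and 688 genes seen. The part of these differences in the shares was not tested.

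Between members, levels were compared per length of merged exons (GENCODE vM21). The median over the 8 sums was highest for Hnrnpf, at 244 CPM per kb, and Hnrnpa2b1, at 224 CPM per kb. Hnrnpab (79.9), Hnrnpk (69.5), Snrpg (60.3) and Srsf5 (52.8 CPM per kb) came next, so that 4 of the 6 highest were hnRNP genes. Of the exons of Hnrnpf and Hnrnpab, 26.5% and 29.1% overlap genes on the other strand, chiefly 4933440N22Rik and Phykpl, from which these reads cannot be told apart. Sf3b1 stood at 42.1, Srsf7 at 26.2, Prpf8 at 18.1, U2af2 at 2.02 and Rbm41 lowest, at 0.449 CPM per kb. With the wide ranges within each gene given above, neighbours in this order cannot be set apart.

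Rbm27 was seen in 32 cells, the number closest to the middle, and served to describe which members were seen together. Its detection was most like that of Sf3b2, with 30 of the 32 cells shared (phi coefficient 0.65 over 65 cells), followed by Prpf39 (27 shared, phi 0.60) and Hnrnpk (30 shared, phi 0.57). All pairs share libraries and depth.

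A list of 138 other splicing genes, named for their known roles, was read beside the members. Of these 61 were in the table and 53 were tested: 7 (13.2%, against 7.84% of all genes) had label-retaining shares above all non-label-retaining ones, and 0 lay the other way. The median difference was 24.4 points (19.7 for all genes). The mean share was higher in label-retaining cells for 48 of the 53 (90.6%, against 93.3% of all genes). After thinning 2 of 37 (5.41%, against 3.66%) did not overlap. The 7 without overlap before thinning included Casc3, for a core protein of the exon junction complex (20 label-retaining and 3 non-label-retaining cells). They also included the spliceosome genes Cwc25 (21 and 3), Wbp11 (20 and 4) and Snw1 (27 and 8). Further ones were the regulator Arglu1 (24 and 8) and Lsm5 (16 and 2), for a subunit of the ring on U6 RNA. Casc3 had the largest difference of these, with 66.7, 55.6, 60 and 33.3% against 25, 0, 0 and 10%. The seventh, named here after its values were seen, was the RNA helicase gene Ddx5, at 100, 88.9, 90 and 88.9% against 87.5, 75, 66.7 and 80%. For all 7 the exact permutation p was 0.0286 and the adjusted p 0.364. In level, 0 of the 53 passed the edgeR test.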

How the data were processed

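RNA of 65 single cells was measured with SMART-Seq v4 and Nextera XT libraries, per the labels' protocols. The authors deposited estimated counts for each gene in each cell, from reads on mm10. DESeq is named in the submitters' processing notes and the table is called normalized. Sums per cell ran from 86 to 20516069, so cells were not scaled to a common total. Whether size factors had been applied cannot be told from the sums, and the values were treated here as unscaled counts. Which aligner, counter or annotation was used is not given in the sources used here. Of values from 0.5 to 20, 75.5% were whole within 0.0001. Identifiers were matched to RefSeq GRCm38.p6 (16216 of 18036; the 1820 others held 0.13% of all counts).

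The unit was the repeat. The values of all cells from 1 group in 1 repeat were added up, rounded to whole numbers and tested with edgeR 4.0.16 (R 4.3.3, TMM, quasi-likelihood, Benjamini-Hochberg over all genes tested), for genes with a mean of at least 10 counts per cell over the 8 sums and a value of at least 1 in at least 10 cells. Shares of cells with a value of at least 1 were tested by exact permutation (Python 3.11.15, numpy 2.4.6). DESeq2 1.42.0, limma 3.58.1, other scalings and filters, thinning to 10000 counts and leaving out repeats were alternatives. Each library was 1 sorted cell, and no doublet caller was run. Intervals from a count of 0 use a floor of 3 counts and cover counting error only.

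Samples with the same repeat number had positively correlated deviations from their group means (0.56, 0.27, 0.17 and 0.16 for repeats 1 to 4). Across numbers, label-retaining repeat 4 with non-label-retaining repeat 3 also gave 0.16, and label-retaining repeat 3 with non-label-retaining repeat 4 gave 0.10. No other pair of different numbers had a positive correlation. Deviations were taken from each group's own mean, so positive correlations within a number go with negative ones across numbers by construction. The correlations thus do not show pairing for repeats 3 and 4. The main tests of level and of share of cells did not pair the samples, and the replicate block was an alternative. The labels call the repeats biological. The members, the list of other splicing genes and the marker lists were chosen with earlier results of these data known. Named genes are every member seen in at least 10 cells, with shares per repeat for the 3 seen in the most cells per role group, the 6 with the largest difference in each direction, and any called. Fold changes are printed for members with an unadjusted p under 0.05 or no overlap in share of cells.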

Additional observations from a re-analysis of the deposited data

Results flagged for a closer look

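Within groups of 4 repeats, 70 sets of values were examined. In 10 of them (14.3%) a single repeat stood far from the other 3. The limit is one that chance passes in about 1 of 20 groups of normally distributed values. Sums that rest on few cells and shares of few cells need not be so distributed, so the 14.3% cannot be set against that rate. In level, 6 of 18 sets had such a repeat. The non-label-retaining sum of repeat 4 stood far above the others for Hnrnpa2b1 (151067 CPM), Hnrnph3 (32836 CPM), Snrpg (21232 CPM) and Rbm22 (739.6 CPM), and that of repeat 3 for Snrpe (50768 CPM). The label-retaining sum of repeat 3 stood above the others for U2af2 (157 CPM). In share of cells, 4 of 50 sets had one: label-retaining repeat 3 was low for Hnrnpa2b1 (60%) and for Rbm14 (0%), label-retaining repeat 2 was low for Rbm6 (55.6%), and non-label-retaining repeat 2 was high for Rbm28 (75%). In the 4 sums of repeat 4 between 85.7 and 99.2% of the counts came from 1 cell, a different cell for each gene.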

How the results depend on the processing

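No gene or member was called in level under any alternative but DESeq2, which called 14 genes and 0 members, and 0 passed in share of cells. With the replicate block, 0 genes were called in level (smallest adjusted p = 0.517) and 0 in share of cells, where sign flips within repeats cannot go below p = 0.125 (smallest adjusted p = 0.422); it changed no other call. Members that did not overlap were 12 in place of 5 with values of at least 10 (36.4%, against 20.3% of all genes), and 7 to 12 when each repeat was left out (17.1 to 29.3% of members, against 13.4 to 22.5% of all genes); genes that did not overlap were 60 in place of 265 after thinning to 10000 counts, and 454 to 761 higher and 1 to 5 lower when each repeat was left out, since fewer repeats overlap less easily. The difference in members per cell was 6.44 in place of 10.7 after thinning, and 9.65 to 11.4 when each repeat was left out.

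In share of cells 15 of 328 differences between the groups changed sign. They were Hnrnpa2b1 (-5.83 points), Hnrnpf (-1.67) and Rbm42 (-0.476) without the 4 shallow cells, Rbm28 (12.5) with values of at least 10, and Rbm41 (-5.16), Snrpe (-0.724) and Srsf2 (-4.33) after thinning. When each repeat was left out in turn, the difference ran from -3.61 to 10.8 points for Hnrnpa2b1 (negative without repeat 1 or 4), from -3.15 to 24.2 for Hnrnpll, -5 to 26.5 for Rbm42 and -5.56 to 30.6 for Snrpd3 (negative without repeat 1), from -9.63 to 14.4 for Snrpd1 (negative without repeat 2) and from -18.7 to 16.9 for Rbm28 (positive without repeat 2 or 3). In level 12 of 90 log2 fold changes changed sign. They were Hnrnph3 (0.64), Rbm22 (4.02), Rbm6 (-0.36) and Snrpg (5.32) with the replicate block, Rbm22 with total counts (1.25), without a filter (0.18) and with limma on cells scaled to 1 total (0.15), and Snrpg with that limma fit (1.53). Leaving out repeats gave -6.65 to 0.23 for Hnrnph3, -2.09 to 5.71 for Rbm22 and -4.42 to 7.10 for Snrpg, positive without repeat 4 only, and -5.70 to 0.48 for Snrpe, positive without repeat 3 only. The causes were not tested. With as few as 4 cells in a repeat, small differences in share of cells were not detectable.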
